A study of Mus musculus with 6 samples.

Results

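The genes described here are the enzymes of cholesterol synthesis and the proteins that sense, absorb, export and esterify sterols, measured in the mucosa of the mouse terminal ileum. They were chosen by name, as 27 gene symbols, and each is read from the brightest, on average, of the probe sets that carry its symbol alone. Of these, 25 were measured, out of 18193 genes in all: 17 of 18 synthesis enzymes, 3 of 3 genes of sterol sensing and movement inside the cell, and 5 of 6 genes of sterol uptake, efflux and esterification. Acat2 and Soat2 were not analysed here.

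The 6 samples were 3 pools of RNA from Duoxa-/- mice and 3 pools from wt littermates, all 129S6 females aged 3 months, and each pool held 2 to 3 animals. Duoxa-/- mice lack the maturation factors that the dual oxidases need to reach the cell surface and release hydrogen peroxide. The labels name no promoter or Cre that would limit the loss to the gut. Each of 3 cages, 1 litter each, gave 1 pool per genotype, and each pool was read on 1 array as log2 values of probe sets. Cohoused littermates were compared to ask how ileal expression differs with the genotype. Duoxa2, the check of the genotype, read 5.90, 5.55 and 5.92 in the Duoxa-/- pools of cages 1, 2 and 3, against 8.81, 8.36 and 7.24 in the wt pools. The arrays correlated with each other with r of 0.994 to 0.998 across probe sets, and on average the wt pool of cage 1 was the least like the others (0.994). The 6 markers of the ileum, among them the bile acid carrier Slc10a2 and the bile acid binding protein Fabp6, all lay at or above the median of all probe sets (6.58). Of 5 hepatocyte markers, 3 (Alb, Fgb and Cyp7a1) lay below it, and Ttr and Apoh lay above it, with means over the 6 pools of 8.62 and 7.77.

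Cells make cholesterol from acetyl-CoA through mevalonate, isoprenoids, squalene and lanosterol. When membranes run low in sterols, the transcription factor SREBP2, encoded by Srebf2, is released from the endoplasmic reticulum and switches on the genes of the whole route, while INSIG proteins hold it back when sterols are plentiful. Enterocytes also take up dietary and biliary cholesterol through NPC1L1 at the brush border and pump plant sterols and part of the cholesterol back into the lumen through the paired half-transporters ABCG5 and ABCG8, whose genes are induced by the oxysterol receptors LXR. Absorption through NPC1L1 is known to be strongest in the proximal small intestine.

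No gene of sterol synthesis or transport passed the test between genotypes, and the measured differences were small. With limma, 0 of 25 members had an adjusted p under 0.05, and the background was 0% of all genes. Duoxa2, the check of the genotype, was not called either, with a difference of -2.34 (limma adjusted p = 0.760). A gene that was not called is therefore not shown to be unchanged. At an unadjusted p under 0.05 there were 3 members, Npc1l1, Abcg8 and Dhcr7, where 5.53% of all genes reached that level. All 3 were lower in Duoxa-/- pools, as were 3.66% of all genes at that level. The differences, Duoxa-/- minus wt on the log2 scale, ran from -0.27 to 0.17, with a median standard error of 0.09. The medians of the 2 arms of sterol handling lay apart: the median difference was 0.0055 over the 17 synthesis genes and -0.18 over the 5 uptake and efflux genes, beside -0.0115 over all genes, and the difference between the 2 medians was not tested. The median of the uptake and efflux genes was -0.109 when the Duoxa-/- pool of cage 3 was left out, -0.0931 when the wt pool of cage 2 was, and -0.109 when both cage 2 pools were. In 5 of 25 members, Npc1l1, Abcg5, Abcg8, Dhcr7 and Tm7sf2, every Duoxa-/- pool read below every wt pool, an arrangement found in 6.46% of all genes. The opposite arrangement occurred in 0 of 25 members and in 5.08% of all genes. The samples of a group are pools from separate litters, so the p-values measure the spread between pools and not between single animals.

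**Figure D1:**
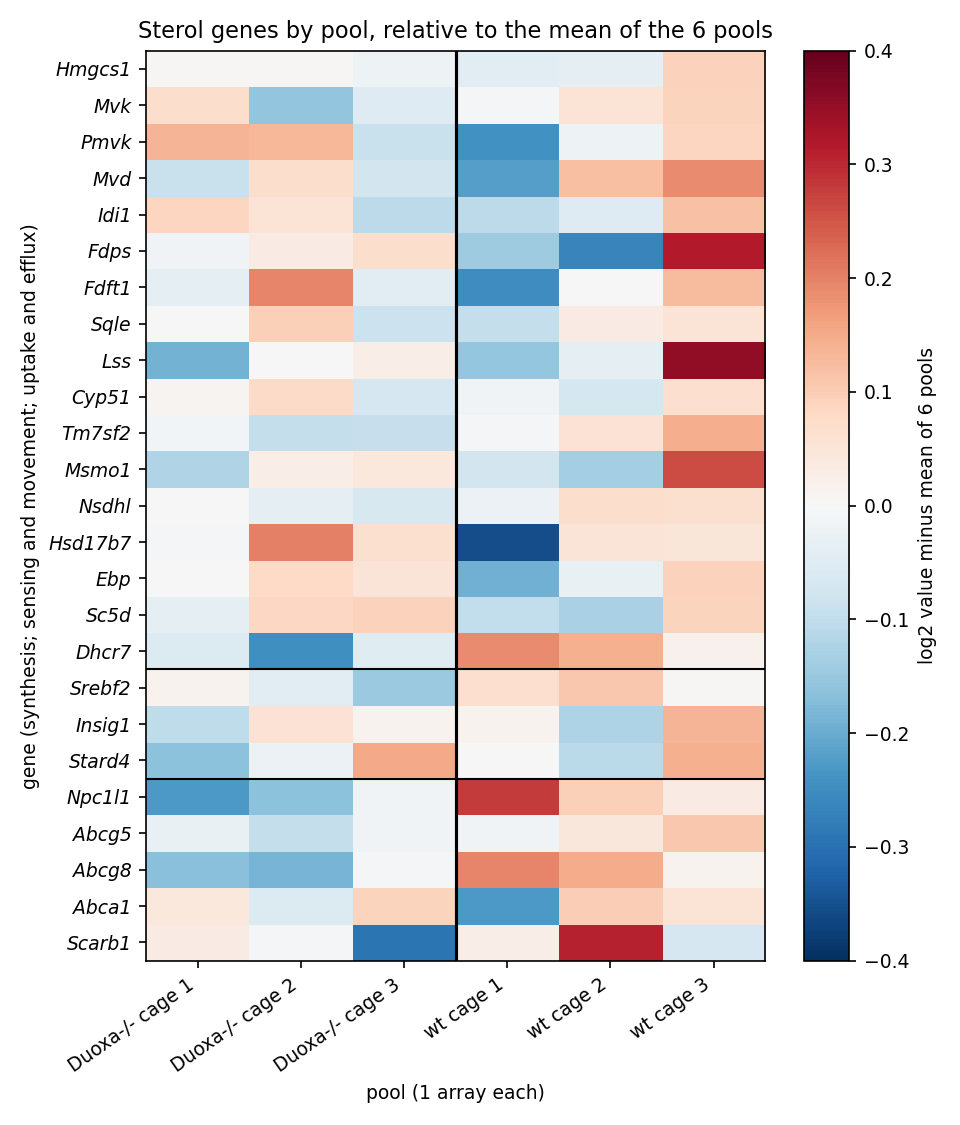
Each row is 1 of the 25 genes and each column 1 pool, Duoxa-/- pools left of the vertical line and wt pools right of it, coloured by the log2 value minus the gene's mean over the 6 pools. The wt pool of cage 3 is the highest for 9 of the 17 synthesis genes and the wt pool of cage 1 the lowest for 8, while Npc1l1 and Abcg8 are lower in each Duoxa-/- pool than in any wt pool.

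Npc1l1, the brush-border protein through which enterocytes absorb cholesterol, had the largest difference of the 25. Its probe set read 12.26, 12.32 and 12.47 in the Duoxa-/- pools of cages 1, 2 and 3, against 12.77, 12.58 and 12.52 in the wt pools. Both cage 3 pools lay at the inner edge of their group, with a gap of 0.046 between the groups, and the cage 1 pools at the outer edge. The log2 difference was -0.27 (SE 0.10, 95% confidence interval -0.49 to -0.05, limma adjusted p = 0.811), or -17.2% on the linear scale with an interval of -29.0% to -3.30%. Within cages it was -0.51, -0.26 and -0.05.

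Abcg8, whose product forms the sterol exporter together with that of Abcg5, read 8.65, 8.63 and 8.81 in the Duoxa-/- pools, against 9.01, 8.96 and 8.83 in the wt pools. As for Npc1l1, the 3 wt pools stood in the order cage 1, cage 2, cage 3 from high to low, and the Duoxa-/- pool of cage 3 was the highest of its group. The log2 difference was -0.24 (SE 0.09, interval -0.44 to -0.04, limma adjusted p = 0.811), with -0.36, -0.34 and -0.02 within cages 1, 2 and 3. Abcg5, the partner gene, read 11.13, 11.06 and 11.15 in the Duoxa-/- pools, against 11.15, 11.21 and 11.27 in the wt pools. Its groups were separated by only 0.00074, and its wt pools stood in the reverse order, with cage 3 highest. The difference of -0.09 (SE 0.07, interval -0.27 to 0.08, limma adjusted p = 0.819) was little larger than its standard error.

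**Figure D2:**
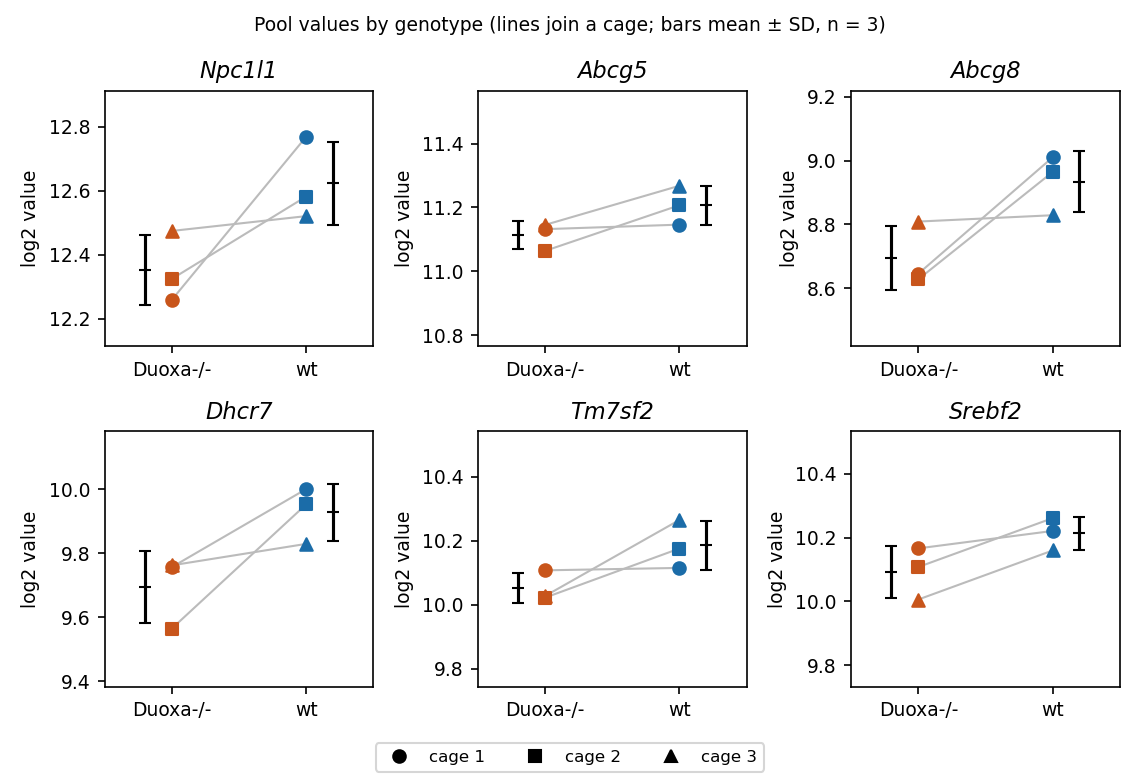
Log2 values of 6 genes in the 3 Duoxa-/- pools (left) and the 3 wt pools (right), with a marker for each cage, grey lines joining the pools of a cage, and mean ± SD (n = 3) beside each group. All panels span the same range on the log2 axis. In the first 5 genes every Duoxa-/- point lies below every wt point, and for Npc1l1, Abcg8 and Dhcr7 the cage 3 lines are the flattest, while Srebf2 is lower in each Duoxa-/- pool than in the wt pool of its cage but the groups overlap.

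Abcg5 and Abcg8 lie head to head on chromosome 17 and are transcribed away from each other, with starts 110 bases apart in RefSeq's annotation of build GRCm38.p6. That distance holds for the Abcg8 start used here. RefSeq gives another Abcg8 start, whose window lies at chr17:84676052-84676301. The sequence between the starts is the region that both genes share, and it is printed for that reason on the plus strand, in the direction of Abcg8, from chr17:84683012-84683120. Next to it stand the 250 bases before the start of Npc1l1 (chr11:6230246-6230495, minus strand), a gene whose wt pools stood in the same order as those of Abcg8. Capitals mark matches, on either strand, to CCAAT (reverse ATTGG, the CCAAT box) or GGGCGG (reverse CCGCCC, the GC box). The sequences are those of the C57BL/6J reference from RefSeq and not of the 129S6 mice.
Abcg5-Abcg8: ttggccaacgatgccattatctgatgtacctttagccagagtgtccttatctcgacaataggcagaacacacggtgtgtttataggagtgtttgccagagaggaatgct
Npc1l1: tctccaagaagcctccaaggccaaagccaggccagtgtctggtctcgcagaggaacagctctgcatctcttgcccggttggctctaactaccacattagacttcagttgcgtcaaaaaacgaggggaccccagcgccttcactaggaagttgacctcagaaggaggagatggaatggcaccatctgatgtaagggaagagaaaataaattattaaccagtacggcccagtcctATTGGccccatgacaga

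None of these letters occurs in the 109 bases between the Abcg5 and Abcg8 starts. The full window of 250 bases before this Abcg8 start reaches further and holds 2 CCAAT boxes, which begin at positions -175 and -114 from that start, the nearer one ending directly before the printed stretch. The window of the other Abcg8 start holds no match. Npc1l1 has 1 CCAAT box in its 250 bases, which begins at position -17 from its start. A match or its absence in this window is a description of the letters only.

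Abca1, which exports cholesterol across the basolateral membrane to form high density lipoprotein and is also induced by LXR, did not share the pattern. Its values were 9.71, 9.61 and 9.76 in the Duoxa-/- pools, against 9.44, 9.77 and 9.72 in the wt pools, where cage 1 stood apart as the lowest of all 6. The difference was 0.05 (SE 0.10, limma adjusted p = 0.916) and changed sign between cages, with 0.27 in cage 1 and -0.15 in cage 2. Scarb1, the scavenger receptor for high density lipoprotein, read 7.41, 7.37 and 7.08 in the Duoxa-/- pools, against 7.40, 7.68 and 7.30 in the wt pools. These groups overlapped, and the difference was -0.18 (SE 0.13, limma adjusted p = 0.815). All 3 probe sets of Scarb1 had a negative difference, of -0.10 to -0.21.

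Most marker genes of absorptive cells also had negative differences, as did 53.9% of all genes. Of 9 markers of the proximal small intestine 6 had a negative difference, and the log2 of their summed linear values ran from 12.89 to 13.22 in Duoxa-/- pools and from 13.32 to 13.59 in wt pools, so that these ranges did not overlap. That sum is carried by its brightest gene, Cubn. With a mean of 12.70 in this ileal mucosa, Cubn is not a marker of the proximal part alone. The sum is therefore no measure of a proximal programme. The mean of the 9 log2 values did overlap, with 7.66 to 7.74 in Duoxa-/- pools and 7.64 to 7.93 in wt pools. The 3 with the smallest p were Cubn (-0.36), Rbp2 (-0.51) and Fabp1 (-0.49), which take up or bind vitamin B12 with its carrier, retinol and fatty acids, and 4 of 9 were below the median of all probe sets. Villus enterocyte markers, a list that shares Fabp1 and Lct with the one before, had a negative difference in 11 of 14, with summed levels of 16.56 to 16.79 in Duoxa-/- pools and 16.70 to 16.77 in wt pools. Within cages 1, 2 and 3, 5, 1 and 8 of the 14 were higher in the Duoxa-/- pool. Crypt proliferation markers had a positive difference in 11 of 13, with summed levels of 14.65 to 14.71 in Duoxa-/- pools and 14.58 to 14.66 in wt pools. By contrast, the 6 ileum markers split 3 to 3, and their summed levels were 15.72 to 15.83 in both genotypes. Negative differences were not particular to absorptive cells. They were found in 10 of 10 smooth muscle, 5 of 7 T cell, 4 of 5 hepatocyte and 2 of 3 adipocyte markers. The signs varied by cage here too. Within cages 1, 2 and 3, 0, 10 and 2 of the 10 smooth muscle markers were higher in the Duoxa-/- pool. The same counts were 5, 1 and 2 of 7 for T cell, 2, 1 and 2 of 5 for hepatocyte and 2, 0 and 2 of 3 for adipocyte markers. In each of these lists 0 genes passed limma's test. Their part in the lower values of Npc1l1, Abcg5 and Abcg8 was not tested, and in bulk mucosa fewer cells of a type and less RNA per cell cannot be told apart.

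The enzymes of cholesterol synthesis showed no common difference between genotypes, with 9 of 17 higher and 8 of 17 lower in Duoxa-/- pools, where 46.1% of all genes were higher and 53.9% lower. The signs of their differences varied by cage instead. In cage 1, 13 of 17 were higher in the Duoxa-/- pool, with 50.5% of all genes as the background, and in cage 2, 12 of 17 were higher, with 42.2% as the background. In cage 3, 15 of 17 were lower in the Duoxa-/- pool, with 49.9% as the background. The median differences were 0.07, 0.10 and -0.14 in cages 1, 2 and 3. A test of whether the genotype difference itself differs between cages was not possible, because each cage holds 1 pool per genotype.

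**Figure D3:**
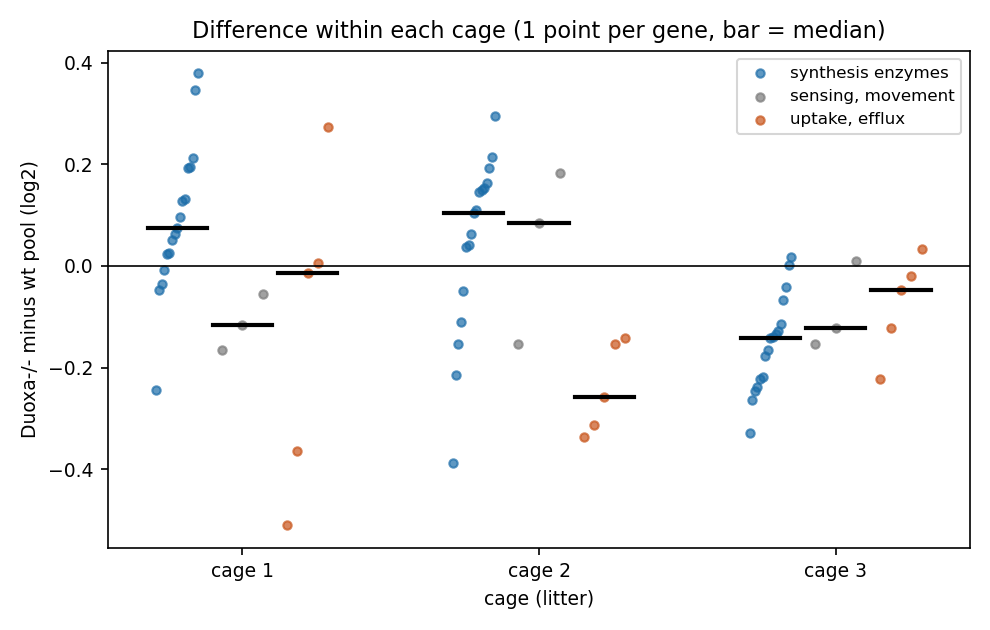
Each point is the Duoxa-/- pool minus the wt pool of a cage for 1 gene, on the log2 scale, with 17 synthesis genes, 3 genes of sensing and movement and 5 of uptake and efflux, and black bars at the medians. Synthesis genes lie mostly above 0 in cages 1 and 2 and mostly below 0 in cage 3, with medians of 0.07, 0.10 and -0.14, while the uptake and efflux genes have their lowest median, -0.26, in cage 2.

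Between the Duoxa-/- pools of cages 3 and 1, 8 of 17 synthesis genes were higher in cage 3, as were 48% of all genes. Between the wt pools of the same cages, 16 of 17 were higher in cage 3, with Dhcr7 as the exception, where 51.4% of all genes were higher. The wt pool of cage 3 was the highest of all 6 for 9 of 17 and the wt pool of cage 1 the lowest for 8 of 17, beside 12.8% and 26.8% of all genes. The full order of wt pools, cage 3 above cage 2 above cage 1, held for 10 of 17, beside 16.1% of all genes. The mean of the 17 genes, each relative to its own mean over the 6 pools, was -0.015, 0.030 and -0.023 in the Duoxa-/- pools of cages 1, 2 and 3, against -0.11, -0.014 and 0.13 in the wt pools. The range over the 3 pools was wider in wt than in Duoxa-/- for 13 of 17 synthesis genes, beside 61.7% of all genes, with a median range of 0.16 in Duoxa-/- pools and 0.22 in wt pools. Over all genes these medians were 0.18 in Duoxa-/- pools and 0.23 in wt pools, a gap of about the same size. The wt pool of cage 1 stood at one end of other lists as well. Its 10 smooth muscle markers had a mean of 0.42 relative to the 6 pools, and its crypt proliferation markers one of -0.15. Their part in the synthesis values was not tested.

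Along the pathway, the first enzyme measured was Hmgcs1, which makes the precursor of mevalonate. Its brightest probe set read 13.57, 13.57 and 13.55 in Duoxa-/- pools, against 13.52, 13.53 and 13.66 in wt pools, a difference of -0.0073 (SE 0.08, limma adjusted p = 0.985). The groups overlapped, and the wt pool of cage 3 was the highest. For the kinases Mvk and Pmvk, which phosphorylate mevalonate, the differences were -0.09 and 0.12, and for Mvd, which then decarboxylates it, -0.06. Idi1, the isomerase of the isoprenoid units, differed by 0.02. The lowest adjusted p of these 5 genes with limma was 0.831, for Mvk.

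Fdps, which builds farnesyl diphosphate, had the widest range over wt pools of the 25 genes. It read 11.23, 11.27 and 11.31 in the Duoxa-/- pools, a range of 0.09, against 11.10, 10.98 and 11.56 in the wt pools, a range of 0.58. The Duoxa-/- pools thus lay inside the span of the wt pools, and the genotype difference was 0.06 (SE 0.14, limma adjusted p = 0.931). Fdft1 and Sqle, which form squalene and oxidise it, differed by 0.08 and 0.0055. Lss closes the sterol ring to give lanosterol. It read 9.16, 9.35 and 9.38 in Duoxa-/- pools, against 9.20, 9.32 and 9.71 in wt pools, and only the wt pool of cage 3 stood apart. The difference of Lss was -0.11 (SE 0.14, limma adjusted p = 0.868), with -0.04, 0.04 and -0.33 within cages 1, 2 and 3. 

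The enzymes that turn lanosterol into cholesterol remove methyl groups and rearrange double bonds. Msmo1, a sterol methyl oxidase, read 11.81, 11.96 and 11.98 in Duoxa-/- pools, against 11.86, 11.80 and 12.20 in wt pools, again with the wt pool of cage 3 highest, a difference of -0.03 (SE 0.12, limma adjusted p = 0.955). Hsd17b7, a ketosteroid reductase of the route, had the largest positive difference of the 25 genes. Its values were 10.60, 10.81 and 10.67 in Duoxa-/- pools, against 10.25, 10.66 and 10.66 in wt pools, where cage 1 was the lowest of all. The difference was 0.17 (SE 0.12, interval -0.11 to 0.46, limma adjusted p = 0.815), and it was positive in all 3 cages (0.35, 0.15 and 0.02). Sc5d, a desaturase, was the other synthesis gene that was higher in all 3 cages (0.06, 0.21 and 0.0026), where 13.5% of all genes were. Cyp51, Nsdhl and Ebp, a demethylase, a dehydrogenase and an isomerase of this stretch, differed by 0.01, -0.07 and 0.09.

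Dhcr7, the reductase of the last step, had the lowest difference of the 17 synthesis enzymes. It read 9.76, 9.56 and 9.76 in the Duoxa-/- pools, against 10.00, 9.95 and 9.83 in the wt pools, with a gap of 0.067 between the groups. The difference was -0.23 (SE 0.09, interval -0.44 to -0.03, limma adjusted p = 0.811), or -14.9% on the linear scale, and it was negative in each cage (-0.24, -0.39 and -0.07). Its wt pools stood in the order of those of Npc1l1 and Abcg8, with cage 1 highest. Tm7sf2, a sterol reductase, read 10.11, 10.02 and 10.03 in Duoxa-/- pools, against 10.12, 10.18 and 10.26 in wt pools. Its groups were 0.0076 apart, and the difference was -0.13 (SE 0.08, limma adjusted p = 0.811). Dhcr7 and Tm7sf2 were the synthesis genes lower in all 3 cages, an outcome of 6 of the 25 members and 16.6% of all genes.

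**Figure D4:**
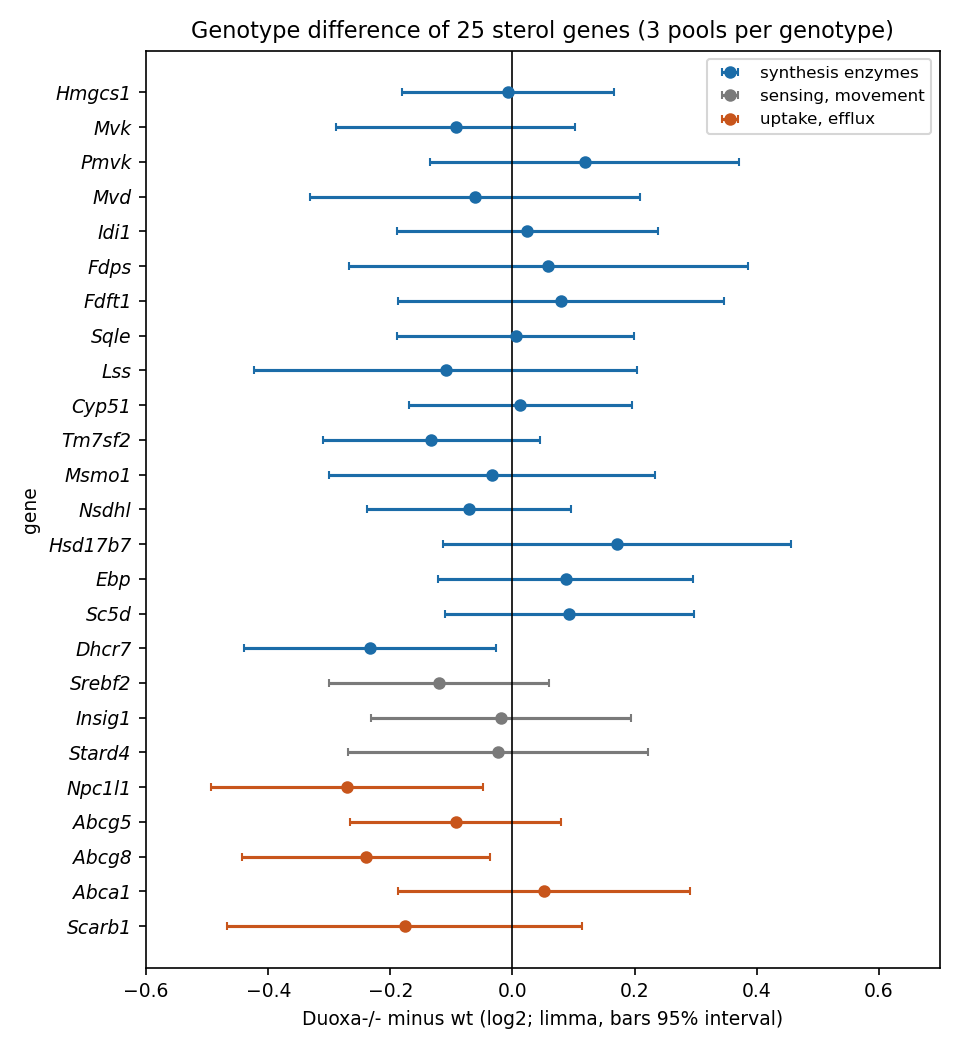
Points are the differences between 3 Duoxa-/- and 3 wt pools on the log2 scale for each of the 25 genes, and bars are limma's 95% confidence intervals. The intervals of Dhcr7, Npc1l1 and Abcg8 lie below 0 before adjustment over all genes, and the other 22 cross 0.

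The upstream sequences of 3 synthesis genes are shown because they stand for the different patterns of pools: Hmgcs1 and Lss were highest in the wt pool of cage 3, and Dhcr7 was lower in every Duoxa-/- pool. Each is the 250 bases before a RefSeq start on the plus strand of GRCm38.p6, for Hmgcs1 at chr13:119690101-119690350, for Lss at chr10:76531355-76531604 and for the downstream one of 3 Dhcr7 starts at chr7:143829964-143830213. Capitals mark CCAAT and GC boxes as above and, in Hmgcs1, a match to the sterol regulatory element TCACNCCAC (reverse GTGGNGTGA), the kind of site that SREBP2 is known to bind.
Hmgcs1: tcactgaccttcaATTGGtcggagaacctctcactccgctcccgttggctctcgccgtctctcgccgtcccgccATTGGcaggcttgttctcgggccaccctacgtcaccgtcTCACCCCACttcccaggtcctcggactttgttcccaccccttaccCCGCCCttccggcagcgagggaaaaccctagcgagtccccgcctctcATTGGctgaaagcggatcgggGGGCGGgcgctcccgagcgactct
Lss: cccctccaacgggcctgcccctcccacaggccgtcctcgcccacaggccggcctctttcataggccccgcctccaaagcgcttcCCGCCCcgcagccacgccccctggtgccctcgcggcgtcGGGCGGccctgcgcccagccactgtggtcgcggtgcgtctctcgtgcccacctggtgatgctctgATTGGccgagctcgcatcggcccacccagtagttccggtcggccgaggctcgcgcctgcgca
Dhcr7: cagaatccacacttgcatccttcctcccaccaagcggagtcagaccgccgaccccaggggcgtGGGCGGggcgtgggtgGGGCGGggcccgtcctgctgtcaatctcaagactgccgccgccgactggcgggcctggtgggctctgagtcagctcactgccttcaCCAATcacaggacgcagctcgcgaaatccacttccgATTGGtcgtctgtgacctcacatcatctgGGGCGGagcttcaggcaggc

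Windows of this kind were found for 20 of the 25 members, and those of Abcg5 and Abcg8 and of neighbouring Dhcr7 starts overlap. A CCAAT box was present in 18 of their 24 windows, where 33.9% of all 32851 windows of that length hold one. A GC box was present in 17 of 24, beside 32.7% of all windows. An exact match to the letters TCACNCCAC occurred in 1 of 24, in Hmgcs1 at position -137 from the start, and in 1.05% of all windows. Variants of the sterol regulatory element were not searched for, so a window without this match may still hold one. The 3 motifs do not overlap in the sequences printed. Genes of both patterns held the CCAAT box, as Lss and Dhcr7 show. For Dhcr7 this depends on the start, since the windows of its other starts, which are not printed, held no CCAAT box.

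Of the genes that sense sterols, Srebf2 was lower in all 3 cages. It read 10.17, 10.11 and 10.01 in Duoxa-/- pools, against 10.22, 10.26 and 10.16 in wt pools, and the groups met only in cage 1 of the Duoxa-/- pools and cage 3 of the wt pools. The difference was -0.12 (SE 0.08, interval -0.30 to 0.06, limma adjusted p = 0.815). Its second probe set read 8.97, 8.95 and 8.93 in Duoxa-/- pools, against 9.21, 9.12 and 9.04 in wt pools, and did not overlap. Insig1, the SREBP2 target that holds SREBP2 back, read 10.88, 11.05 and 11.00 in Duoxa-/- pools, against 11.00, 10.86 and 11.12 in wt pools, a difference of -0.02 (SE 0.09, limma adjusted p = 0.969). Stard4, a carrier of cholesterol between membranes, differed by -0.02 (SE 0.11, limma adjusted p = 0.967), with the cage 3 pools of both genotypes highest, at 12.20 in Duoxa-/- and 12.19 in wt. Its second probe set read 11.23, 11.12 and 11.34 in Duoxa-/- pools, against 11.41, 11.41 and 11.35 in wt pools. These groups did not overlap, the difference was -0.16, and the wt pool of cage 3 was the lowest of its group. The dimmest Stard4 probe set differed by -0.05, with the cage 3 pools again highest.

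The probe sets of a gene differed in how far they moved. Of 13 members with more than 1 probe set at or above the median of all probe sets, 7 had the same sign of the genotype difference in all of them, and 6, Fdft1, Hmgcs1, Idi1, Msmo1, Mvk and Sc5d, did not. For the contrast of the wt pools of cages 3 and 1, 11 of 13 had the same sign. Hmgcs1 was read by 5 probe sets. The 3 brightest, with means of 13.03 to 13.57, differed between the wt pools of cages 3 and 1 by -0.03 to 0.14. The next, with a mean of 11.32, read 11.33, 11.47 and 11.45 in Duoxa-/- pools, against 10.99, 11.07 and 11.61 in wt pools, a contrast of 0.61 between wt cages 3 and 1. The dimmest, with a mean of 7.65, gave 0.76. For Cyp51, likewise, the brightest probe set gave 0.08 and the next brightest gave 0.48, with 9.68, 9.87 and 9.66 in Duoxa-/- pools against 9.30, 9.57 and 9.78 in wt pools. The genotype differences of these next brightest probe sets were 0.19 for Hmgcs1 and 0.18 for Cyp51, beside -0.0073 and 0.01 for the brightest ones.

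**Figure D5:**
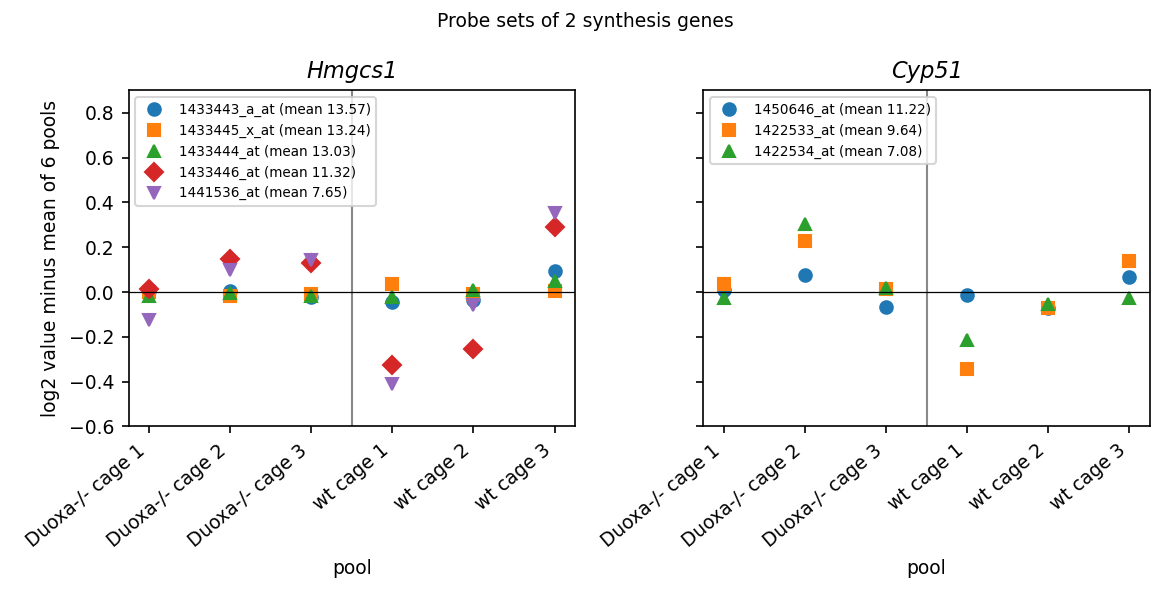
Log2 values of the 5 probe sets of Hmgcs1 (left) and the 3 of Cyp51 (right) in each pool, relative to each probe set's mean over the 6 pools, with that mean in the legend and the Duoxa-/- pools left of the grey line. The 3 brightest probe sets of Hmgcs1 stay near 0 in every pool, while the 2 dimmer ones are low in the wt pool of cage 1 and high in that of cage 3.

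Between cages, with genotype in the fit, limma's moderated F-test called 0 of 25 members (2 of 18193 genes, Nebl and Igkv15-103, a background of 0.011%). Unadjusted, 0 of 25 had a p under 0.05 in this test, where 6.21% of all genes did. The smallest adjusted p among the members was 0.821, for Lss. This test asks for a shift shared by both genotypes of a cage, and so it does not address a contrast found in the wt pools alone.

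A wider list of 35 further sterol genes, 26 of them measured, held 10 genes with a positive and 16 with a negative difference, a median of -0.03 and 0 called by limma. At an unadjusted p under 0.05 there were 2 of 26, Cyp27a1 and Nr1h3, where 5.53% of all genes reached that level. In 3 of 26, these 2 and Gramd1b, every Duoxa-/- pool read below every wt pool, as in 6.46% of all genes. The opposite arrangement occurred in 1 of 26, Lbr, with a difference of 0.13, and in 5.08% of all genes. Cyp27a1, the mitochondrial sterol 27-hydroxylase, which makes an oxysterol that activates LXR, had the widest difference. It read 9.36, 9.06 and 8.89 in Duoxa-/- pools, against 9.51, 9.81 and 9.44 in wt pools, without overlap, a difference of -0.48 (SE 0.14, limma adjusted p = 0.811). Nr1h3, which encodes LXR alpha, read 7.90, 7.76 and 7.95 in Duoxa-/- pools, against 8.17, 8.08 and 8.08 in wt pools, also without overlap, a difference of -0.24 (SE 0.08, limma adjusted p = 0.811). Ch25h, the cholesterol 25-hydroxylase, differed by 0.18 (SE 0.11, limma adjusted p = 0.811), with overlapping groups. The part of Cyp27a1 and Nr1h3 in the values of genes induced by LXR was not tested. The genes of the fatty acid synthesis list answer to the related factor SREBP1. Of these, 12 of 14 had a negative difference, where 53.9% of all genes did. The list's median was -0.07, with 0 genes called by limma and 0 with an unadjusted p under 0.05. Within cages 1, 2 and 3, 10, 2 and 5 of the 14 were higher in the Duoxa-/- pool. The 3 with the smallest p were Acly, which supplies cytosolic acetyl-CoA (-0.11, SE 0.09), Mid1ip1 (-0.12, SE 0.11) and Thrsp (-0.31, SE 0.32), a pair that regulates this route.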

How the data were processed

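The 6 single-colour Affymetrix arrays held biotin-labelled RNA of pooled ileal mucosa, per the labels' protocols. The deposited log2 values of probe sets came from RMA, run by the authors with affy (per the submitters' processing notes), with no version or setting stated there. RMA equalises the distributions of arrays and compresses differences of very dim and very bright probe sets. Raw intensities and detection calls were not used here. Precision is limited by the 6 arrays.

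The table held 45101 probe sets, 64 of them controls, which were dropped. The platform annotation gave 1 symbol to 34945, several to 932 and no symbol to 9160 of those kept. Each of 18193 genes was read from its probe set with the highest mean. Genotypes were compared by two-sided tests in limma 3.58.1 (R 4.3.3), with p-values adjusted over all genes by Benjamini-Hochberg and a threshold of 0.05, without a cage term, and cages with limma's F-test with genotype in the fit. Both fits were tested on simulated data. Intervals are 95% confidence intervals of limma, and the SD is over 3 pools. Tables and figures were made with Python 3.11.15, pandas 2.3.3 and matplotlib 3.10.9. The pools of a cage are paired, since the design text equates cage and litter. Deviations of same-cage pools from their group means correlated with r of -0.18, 0.16 and 0.34 in cages 1, 2 and 3.

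The members, lists and tests were chosen with earlier results of these data known. All members are named, and of each other list up to 3 genes with the smallest p, and marker lists are given as sums. The lists of T cell, hepatocyte and adipocyte markers had median differences of -0.10, -0.11 and -0.0071, and smooth muscle -0.18, with 0 genes called in each. Promoter sequences are from the RefSeq table of GRCm38.p6. Alternatives are given in the closing section.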

Additional observations from a re-analysis of the deposited data

How the results depend on the processing

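With cage as a replicate block, limma called 0 genes and 0 of 25 members, and the block changed no call. The number of members called between genotypes was 0 under every alternative run. These averaged a gene's probe sets, left out probe sets with x, s or a in their suffix, left out dim genes or used quantile normalization. Others used a trend in the variance or array weights, or left out each pool or cage. Probe sets with x, s or a in their suffix may match more than 1 transcript. Leaving out 1 pool or 1 cage gave 0 to 1 genes called over all genes, with Duoxa2 as the gene called without the wt pool of cage 3 and without that cage. The median difference of the synthesis genes lay between -0.0364 and 0.0791 over these alternatives and that of the uptake and efflux genes between -0.255 and -0.0931, the value nearest 0 being that without the wt pool of cage 2. Of 25 members, 12 kept the sign of their difference in every alternative, among them Npc1l1 (-0.384 to -0.152), Abcg8 (-0.350 to -0.178), Abcg5 (-0.133 to -0.0626) and Dhcr7 (-0.316 to -0.156). For these named genes, leaving out or weighting pools could not change the sign, because every Duoxa-/- pool read below every wt pool. Each also has only 1 probe set, so averaging or leaving out probe sets did not change its values. Their constant sign is therefore mostly a result of how the alternatives are built. Over 398 pairs of a member and an alternative, 44 had the opposite sign and 0 had an adjusted p under 0.05.

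The count of genes called between cages, 2, was 0 without a genotype term, with probe sets averaged, without dim genes and with quantile normalization, 3 with array weights and 4 with a variance trend. It ran from 0 to 53 when 1 pool was left out, with 53 when the cage 1 pool of Duoxa-/- mice was dropped, 30 and 22 on dropping the wt pools of cages 1 and 3, and 0 on dropping either pool of cage 2, and the cause was not tested. No member was called between cages under these alternatives.

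Alternatives added after the data were seen concern the counts without a test. Members with every Duoxa-/- pool below every wt pool numbered 6 with probe sets averaged (6.79% of all genes) and 7 with quantile normalization (7.46%), each including the 5 named genes. These 5 genes have only 1 probe set each, so averaging could not remove them. Leaving out a pool can only add to the number of such members, which ran from 5 to 8, the highest without the Duoxa-/- pool of cage 1 (11.2% of all genes). Synthesis genes lower in the Duoxa-/- pool of cage 3 numbered 16 of 17 with probe sets averaged and 15 of 17 with quantile normalization. Without probe sets with x, s or a in their suffix, the count was 13 of 16.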
